A study of Mus musculus with 18 samples.

Results

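The 6 genes described here encode myosin heavy chains of striated muscle. Myh4, Myh1, Myh2 and Myh7 serve adult fibres, and Myh3 and Myh8 are known from developing fibres. They were chosen by name, and 6 of 6 had a row among the 12558 genes of a deposited expression table of mouse skeletal muscle. All 6 also passed the filter on low values, at least 1 CPM in at least 3 libraries, which kept 12524 genes. CPM is a gene's read count scaled to the depth of its library, here on the scale the authors set.

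RNA was sequenced in 18 libraries, 3 biological replicates in each of 6 groups, all labelled skeletal muscle. In 4 groups the mice were wild type and ate for 10 weeks either normal chow (WT-NC) or a high-fat diet, HFD (WT-HFD), or the same diets while drinking water that contained AQ (WT-NC-AQ and WT-HFD-AQ). The other 2 groups, both on HFD for 10 weeks without AQ, were mice with a Nurr1 transgene (HFD-Nurr1-mTg) and wild-type mice labelled as their controls (HFD-WT). The labels do not say which muscle was taken, what AQ stands for, which promoter drives the transgene, or the sex, age, strain and litter of the mice; the p-values measure the spread between these libraries.

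The libraries held 10404895 to 16082994 reads. Nr4a2, the gene of the nuclear receptor NURR1, stood at 18.8, 30.1 and 19.8 CPM in the transgenic libraries and at no more than 4.79 CPM in any other library. All 8 listed markers of skeletal muscle fibres were present, with Acta1, the skeletal actin gene, at 26075 to 47969 CPM. Of 8 heart muscle markers 3 had a row, and Myh6, the heart's fast myosin, reached 2.70 CPM at most.

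A myosin heavy chain is the motor protein of the thick filament, and which heavy chain gene a fibre transcribes sets how fast it shortens and how much energy it uses. In mouse limb muscle the adult chains run from the slow, oxidative type 1 chain (Myh7) through the fast type 2A (Myh2) and 2X (Myh1) chains to the fastest, most glycolytic type 2B chain (Myh4). The embryonic chain (Myh3) and the perinatal chain (Myh8) are used before birth and are switched off as fibres mature, and they return in regenerating or denervated fibres.

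In the mouse genome (GRCm38, GENCODE annotation) 5 of the 6 genes lie on the plus strand of chromosome 11, in the order Myh3 (67078300 to 67102291), Myh2 (67171027 to 67197517), Myh1 (67200052 to 67224575), Myh4 (67238029 to 67260446) and Myh8 (67277124 to 67308634). Myh7 lies apart, on the minus strand of chromosome 14 (54970684 to 54994626). The 250 bases before the RefSeq start site (GRCm38.p6) are shown for the 5 clustered genes because those of the 3 fast adult genes hold a stretch of sequence in common. A RefSeq window was found for 6 of 6 genes, and RefSeq's starts of Myh1, Myh4 and Myh7 differ from those of GENCODE. Capitals mark the stretch of 20 bases shared by Myh2, Myh1 and Myh4 and, in Myh8, the 14 bases of it that recur there.
Myh3 (chr11:67078050-67078299): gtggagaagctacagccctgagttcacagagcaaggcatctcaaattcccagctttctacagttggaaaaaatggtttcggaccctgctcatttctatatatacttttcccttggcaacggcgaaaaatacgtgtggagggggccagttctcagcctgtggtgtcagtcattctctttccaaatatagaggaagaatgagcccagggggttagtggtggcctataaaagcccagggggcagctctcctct
Myh2 (chr11:67170777-67171026): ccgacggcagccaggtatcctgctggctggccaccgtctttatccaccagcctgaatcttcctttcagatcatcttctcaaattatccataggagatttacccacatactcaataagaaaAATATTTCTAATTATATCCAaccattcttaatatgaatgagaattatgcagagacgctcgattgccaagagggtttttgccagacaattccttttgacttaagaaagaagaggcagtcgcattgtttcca
Myh1 (chr11:67199852-67200101): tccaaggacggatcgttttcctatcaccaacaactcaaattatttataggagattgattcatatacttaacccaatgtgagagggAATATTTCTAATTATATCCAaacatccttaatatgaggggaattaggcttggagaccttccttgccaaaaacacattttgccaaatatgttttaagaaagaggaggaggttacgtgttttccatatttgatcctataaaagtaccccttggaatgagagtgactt
Myh4 (chr11:67237562-67237811): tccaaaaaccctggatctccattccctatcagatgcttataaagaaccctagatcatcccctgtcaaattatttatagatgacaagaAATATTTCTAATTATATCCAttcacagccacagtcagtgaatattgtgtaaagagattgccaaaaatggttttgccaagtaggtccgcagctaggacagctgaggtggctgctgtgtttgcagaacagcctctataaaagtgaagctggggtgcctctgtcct
Myh8 (chr11:67276874-67277123): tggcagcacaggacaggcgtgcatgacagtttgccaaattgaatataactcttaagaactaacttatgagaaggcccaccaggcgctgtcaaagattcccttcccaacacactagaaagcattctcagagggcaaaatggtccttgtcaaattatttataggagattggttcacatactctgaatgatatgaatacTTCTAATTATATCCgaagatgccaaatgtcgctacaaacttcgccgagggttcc
The 20-base stretch began 130 bases before the start in Myh2, 165 in Myh1 and 163 in Myh4, and 3 of 32851 RefSeq windows of this length held it, those of Myh1, Myh2 and Myh4. The 14-base stretch was found in 4 of 32851 windows and began 54 bases before the start of Myh8. Both stretches were picked as the longest shared by the genes named, so finding them there was set in advance and the counts are not a test. Neither was found in the windows of Myh3 or Myh7. The letters TATAAA (both strands) were in the windows of Myh1, Myh3, Myh4 and Myh8 and in 12.4% of all windows. AAAGGTCA, the letters to which NURR1 is known to bind as a monomer, were in 0 of 6 windows and in 1.34% of all windows, searched on both strands. A MEF2 motif was in those of Myh1, Myh4 and Myh8 and in 2.92% of all windows, where it overlapped a TATAAA match in each of the 3 genes. These matches describe letters in a short window and were not tested as binding sites.

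The coding sequences are also much alike, which bears on every count. Those of Myh1 and Myh2 were 91.1% identical over 5823 aligned bases, and Myh1 and Myh4 were 90.2% identical. Myh7 was 76.7% to 77.8% identical to the other 5. The following 140 bases from coding position 1549 are shown because they are the longest coding stretch without a difference between Myh1, Myh2 and Myh4, written without capitals for that reason. They join exons 15 and 16 of Myh1 and Myh2 and exons 14 and 15 of Myh4.
Shared coding stretch: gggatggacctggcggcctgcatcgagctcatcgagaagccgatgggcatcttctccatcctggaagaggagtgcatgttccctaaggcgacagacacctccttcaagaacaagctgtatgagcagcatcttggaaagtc
A read of 50 bases, the length used in the study, cannot be assigned within such a stretch. Of all 50-base windows of the longest coding transcript, 26.7% in Myh1, 26.9% in Myh2, 18.9% in Myh4, 21.4% in Myh8, 22.2% in Myh7 and 4.81% in Myh3 occurred in another myosin heavy chain gene. The windows of Myh7 were shared with Myh6 (22.2%), few with Myh1 (0.162%) or Myh4 (0.113%), and none with Myh2, Myh3 or Myh8. How the authors counted such reads, and whether they used strand, is not given. Levels and differences of all 6 genes are uncertain to that extent. The annotated antisense genes Myhas, which overlaps Myh1, and 9430073C21Rik, which overlaps Myh2, had no row in the table used here.

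Myh4 was the most abundant of the 12558 genes in 18 of 18 libraries and took 4.01% to 5.72% of all reads. Its level in replicates 1, 2 and 3 was 37721, 52605 and 59041 CPM in WT-NC, 55916, 42635 and 53084 in WT-NC-AQ, 48124, 41371 and 42185 in WT-HFD, and 37884, 40354 and 43715 in WT-HFD-AQ. In the transgenic experiment it was 38917, 52601 and 55701 CPM in HFD-WT and 43976, 45266 and 47790 in HFD-Nurr1-mTg. The lowest and the highest of the 18 libraries both belonged to the chow group, 1.57-fold apart, and groups that were neighbours in the order of means overlapped. That order ran from WT-NC-AQ (50545 ± 6995 CPM, SD, n = 3) to WT-HFD-AQ (40651 ± 2927).

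Myh1 varied more. Its level was 4232, 3260 and 2271 CPM in WT-NC, 2649, 6109 and 2630 in WT-NC-AQ, 3470, 6882 and 3732 in WT-HFD, and 5315, 5414 and 5578 in WT-HFD-AQ. It was 3045, 4235 and 4201 CPM in HFD-WT and 4167, 2895 and 4676 in HFD-Nurr1-mTg. Replicate 2 stood far above its group in WT-NC-AQ and WT-HFD, while the 3 libraries of WT-HFD-AQ lay close together (5436 ± 133 CPM, SD, n = 3). WT-HFD-AQ was first in the order of means and WT-NC (3254 ± 981 CPM) last, and neighbours in the order overlapped throughout.

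Myh2 was at 3504, 2135 and 1833 CPM in WT-NC, 2280, 3100 and 1546 in WT-NC-AQ, 2327, 3367 and 3096 in WT-HFD, and 2626, 2825 and 2397 in WT-HFD-AQ. In HFD-WT it was at 3179, 3151 and 3128 CPM and in HFD-Nurr1-mTg at 2594, 2925 and 3025. Chow replicate 1 was the highest library of all, so WT-NC spanned nearly the whole range. The order of means ran from HFD-WT (3153 ± 25.8 CPM) to WT-NC-AQ (2308 ± 777), with overlap at each step.

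Myh7 was at 347, 328 and 186 CPM in WT-NC, 404, 335 and 295 in WT-NC-AQ, 215, 365 and 246 in WT-HFD, and 386, 308 and 277 in WT-HFD-AQ. It was at 367, 168 and 164 CPM in HFD-WT and 256, 318 and 157 in HFD-Nurr1-mTg. In 4 of the 6 groups the highest library was more than 1.5-fold above the lowest, and all groups shared the stretch between 295 and 318 CPM. The order of means ran from WT-NC-AQ (345 ± 55.2 CPM) to HFD-WT (233 ± 116), again with overlap at each step.

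**Figure D1:**
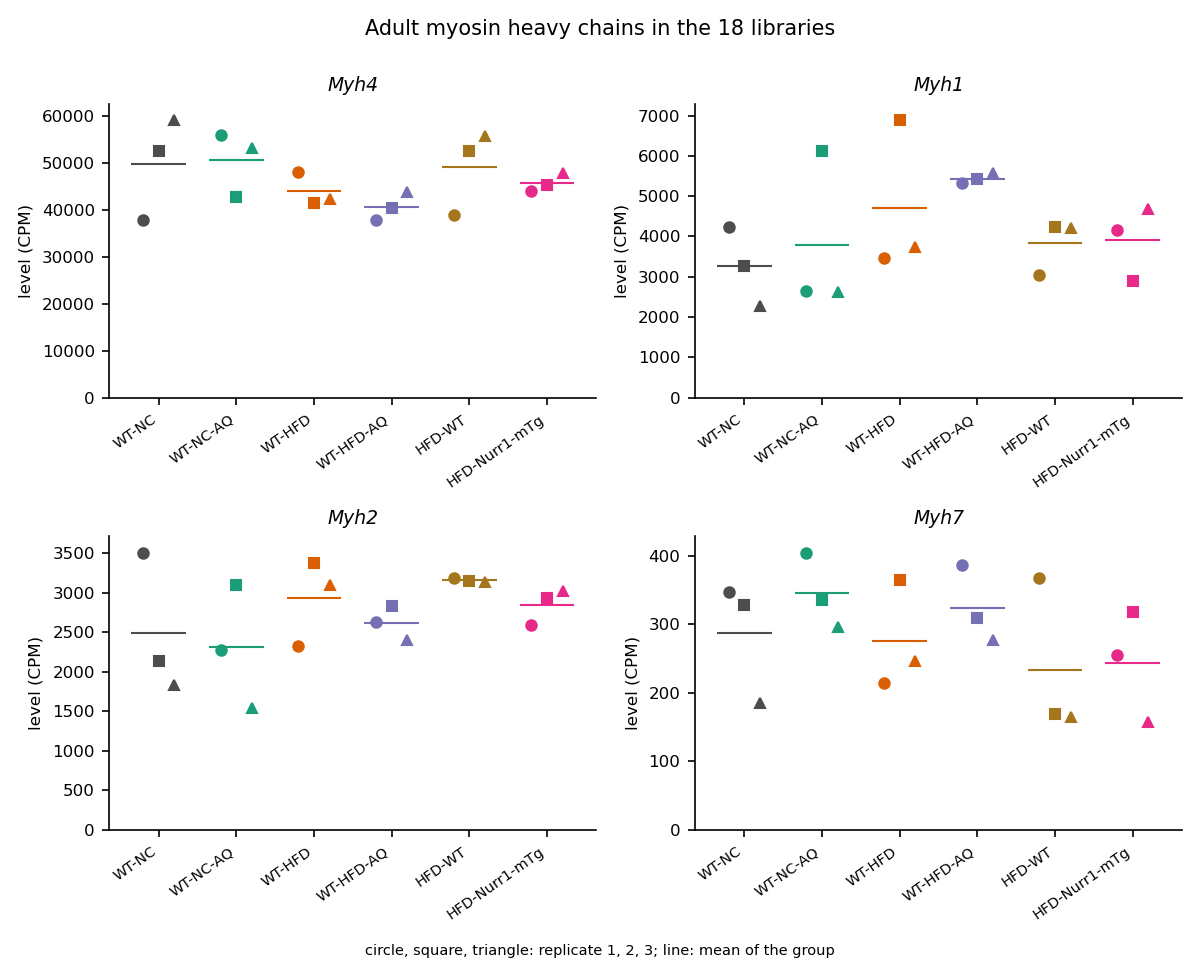
Level in CPM (linear axes from 0) of Myh4, Myh1, Myh2 and Myh7 in each library by group, with circle, square and triangle for replicates 1, 2 and 3 and a line for the group mean. Myh4 lies between 37721 and 59041 CPM, Myh1 between 2271 and 6882, Myh2 between 1546 and 3504 and Myh7 between 157 and 404, and neighbours in the order of group means overlap for each gene.

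To compare the chains with each other, CPM was divided by the length of each gene's merged exons in kilobases and given as a share of the sum over the 6 genes. By this length-scaled share Myh4 made up 81.1% to 93.9% of the heavy chain transcripts in the 18 libraries, with a median of 87.2%. Myh1 made up 3.42% to 12.8% (median 7.01%), Myh2 2.28% to 6.57% (median 4.56%) and Myh7 0.184% to 0.593% (median 0.386%). Myh3 (0.00879% to 0.155%) and Myh8 (0.00376% to 0.0140%) were traces. A share describes transcripts of the whole sample, not numbers of fibres of a type.

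The Myh4 share was 89.6% ± 5.1 (SD, n = 3) in WT-NC, 89.4% ± 5.4 in WT-NC-AQ, 86.0% ± 4.5 in WT-HFD and 84.2% ± 1.1 in WT-HFD-AQ. It was 88.2% ± 1.1 in HFD-WT and 87.9% ± 1.2 in HFD-Nurr1-mTg. The Myh1 share lay between 10.3% and 11.1% in the 3 WT-HFD-AQ libraries. It was 3.42% to 8.92% in WT-NC, 4.14% to 11.3% in WT-NC-AQ and 6.14% to 12.8% in WT-HFD. In the transgenic experiment it was 6.37% to 6.75% in HFD-WT and 5.41% to 8.07% in HFD-Nurr1-mTg. The shares of a library sum to 100%, so they do not move independently and were not tested.

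**Figure D2:**
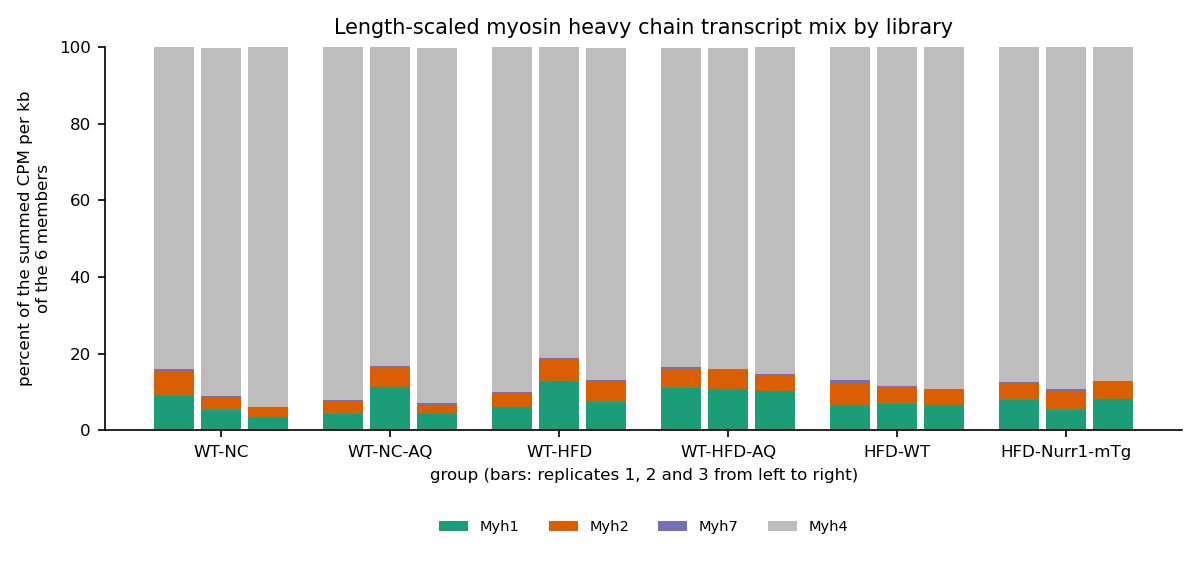
Stacked bars per library (y axis: percent of the summed CPM per kilobase of the 6 genes, from 0) for Myh1, Myh2, Myh7 and Myh4, with replicates 1 to 3 side by side in each group. Myh4 fills 81.1% to 93.9% of each bar, and within the chow group alone it ranges from 84.0% to 93.9%; Myh3 and Myh8 are too small to be drawn.

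None of the 6 genes passed the test in any comparison. The test was limma on log2(CPM + 1), two-sided, with Benjamini-Hochberg adjustment over 12524 genes and a threshold of 0.05. Over 7 comparisons it gave 42 tests of the 6 genes, with 0 calls and 0 unadjusted p-values under 0.05. On recovered reads edgeR made 0 calls with 0 such p-values, and DESeq2 made 0 calls with 1 such p-value. A miss does not show that levels were alike, so each difference is given below with its 95% interval, as a ratio on the log2(CPM + 1) scale. In bulk samples fewer fibres of a type and less transcript per fibre cannot be told apart.

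HFD was compared with chow in untreated wild-type mice to ask how the diet changed muscle. Here 0 of 6 genes were called, and 0.0479% of all genes were (0.0399% by edgeR and 0.375% by DESeq2). Myh1 was 1.42 times its chow level on HFD (95% interval 0.898 to 2.24, limma adjusted p = 0.619) and Myh2 1.21 times (0.870 to 1.68). Myh4 was 0.895 times its chow level (0.623 to 1.29) and Myh7 0.971 times (0.620 to 1.52). All 4 intervals of the adult chains included a ratio of 1. The groups overlapped for 6 of 6 genes, while 12.4% of all genes did not overlap.

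AQ was compared with plain water on each diet. On HFD 0 of 6 genes were called against 0.0479% of all genes (0.0479% by edgeR, 1.14% by DESeq2), and on chow 0 of 6 against 1.11% (1.17% and 2.24%). The ratio of AQ to control for Myh1 was 1.22 on HFD (0.771 to 1.92) and 1.11 on chow (0.702 to 1.75). For Myh4 it was 0.927 (0.645 to 1.33) and 1.03 (0.714 to 1.48), and for Myh7 1.19 (0.763 to 1.87) and 1.24 (0.790 to 1.94). Myh2 was at 0.902 (0.648 to 1.25) and 0.927 (0.667 to 1.29). No gene's groups were apart, against 16.3% of all genes on HFD and 19.8% on chow. The difference between the 2 AQ effects, tested as an interaction, was called in 0 of 6 genes and 0.711% of all genes (0.607% by edgeR, 1.83% by DESeq2), with the smallest adjusted p at 0.881 for Myh3.

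HFD against chow was also compared among mice given AQ, where 10.6% of all genes were called (10.2% by edgeR, 11.2% by DESeq2) and again 0 of 6 heavy chains. Myh1 gave the smallest p of the 42 tests there, at 5436 ± 133 CPM on HFD and 3796 ± 2003 on chow. Its log2 difference was 0.64 ± 0.31 (SE), a ratio of 1.56 (0.986 to 2.46), with an unadjusted p of 0.0565 and a limma adjusted p of 0.214. Myh4 was at 0.808 times its chow level (0.562 to 1.16). Without WT-NC-AQ replicate 2, at 6109 CPM, the log2 difference of Myh1 was larger, 1.04, with a limma adjusted p of 0.0295, and over all 6 libraries left out in turn it ranged from 0.434 to 1.04. No gene's groups were apart, against 33.2% of all genes.

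The Nurr1 transgene was compared with its controls on HFD. In this pair 0.599% of all genes were called (0.647% by edgeR, 1.37% by DESeq2) and 0 of 6 heavy chains. Myh2 was lower in all 3 transgenic libraries (2594 to 3025 CPM) than in all 3 controls (3128 to 3179 CPM), the only case without overlap in the 6 comparisons of 2 groups made here, 36 pairs over the 6 genes; 14.3% of all genes did not overlap in that comparison. The ratio was 0.902 (0.648 to 1.25), with an adjusted p of 0.928 in limma and an exact two-sided permutation p of 0.1, the smallest that 3 against 3 can give. The controls spread unusually little there (SD 25.8 CPM). Ratios were 0.941 for Myh4 (0.655 to 1.35), 1.01 for Myh1 (0.642 to 1.60), 1.08 for Myh7 (0.690 to 1.69) and 1.30 for Myh8 (0.80 to 2.10).

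The 2 untreated wild-type groups on HFD, HFD-WT and WT-HFD, share diet and labelled genotype, and 4.46% of all genes were called between them (4.49% by edgeR, 6.04% by DESeq2), but 0 of 6 heavy chains. The ratio of HFD-WT to WT-HFD was 0.847 for Myh1 (0.537 to 1.34), 1.09 for Myh2 (0.783 to 1.51), 1.11 for Myh4 (0.770 to 1.59) and 0.808 for Myh7 (0.516 to 1.27). No gene's groups were apart, against 23.0% of all genes.

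**Figure D3:**
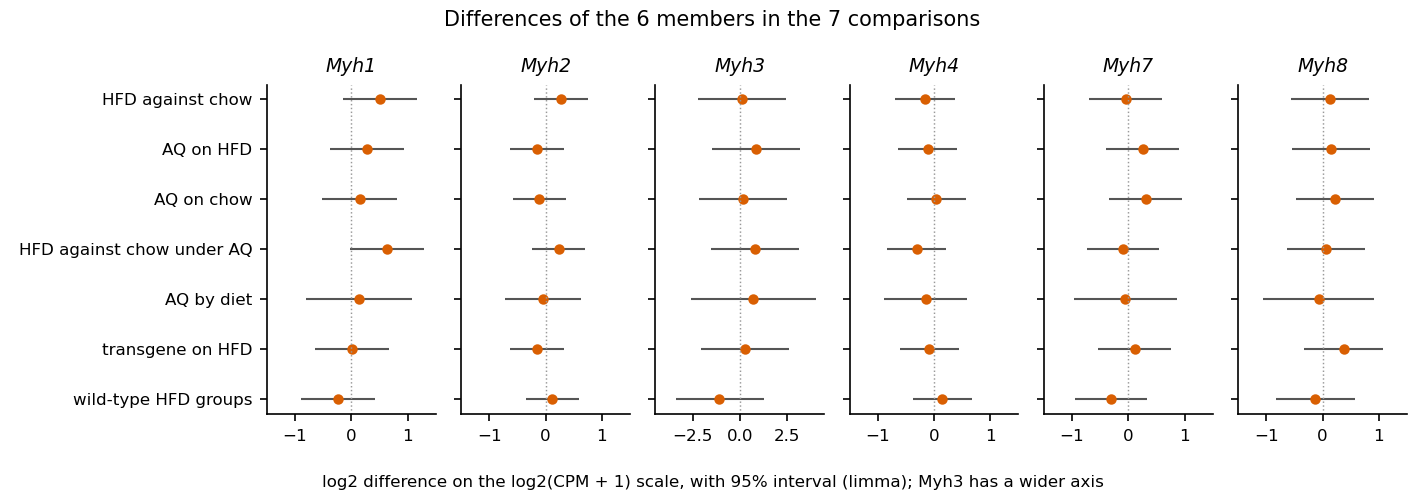
Log2 difference (points) with 95% interval (lines) from limma for each of the 6 genes in the 7 comparisons, on the log2(CPM + 1) scale, with a wider axis for Myh3. All 42 intervals include 0, and the one nearest to excluding it is Myh1 in HFD against chow under AQ, from -0.02 to 1.30.

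The heavy chains varied between mice of the same group more than most genes did. The standard deviation within groups on the log2(CPM + 1) scale was 0.45 for Myh1, 0.32 for Myh2, 0.21 for Myh4, 0.45 for Myh7 and 0.48 for Myh8, against a median of 0.15 over the genes tested. The part of the variance that lay between group means was 32.7% for Myh1, 30.7% for Myh2, 27.9% for Myh4, 28.3% for Myh7 and 11.5% for Myh8, and the median gene stood at 46.3%. This part is not adjusted for the number of groups. With 6 groups of 3 libraries it lies well above 0 even where groups do not differ, so these values do not show a group effect. With 3 libraries in a group, a spread of this size leaves intervals such as those above.

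The embryonic chain, Myh3, had the widest spread of the 6, with a standard deviation within groups of 1.65 on that scale. It was at 5.71, 80.3 and 6.68 CPM in WT-NC, 6.98, 7.25 and 86.3 in WT-NC-AQ, 5.33, 9.55 and 75.9 in WT-HFD, and 70.5, 71.4 and 5.18 in WT-HFD-AQ. It was at 7.77, 8.49 and 5.53 CPM in HFD-WT and 13.9, 5.32 and 9.62 in HFD-Nurr1-mTg. So 5 libraries lay at 70.5 to 86.3 CPM and 13 at 13.9 CPM or less, with nothing between. The high libraries were WT-NC replicate 2, WT-NC-AQ replicate 3, WT-HFD replicate 3 and WT-HFD-AQ replicates 1 and 2, so each wild-type group of the diet and AQ experiment held both high and low libraries, and the transgenic experiment held low ones.

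The step across that gap was 5.07-fold, or 2.26 on the log2(CPM + 1) scale. Among 9514 genes with a mean of at least 5 CPM, Myh3 had the widest such gap with at least 3 libraries on each side. The next was Nr4a2 (1.78), whose upper 3 libraries were the transgenic ones. The genes beside Myh3 on chromosome 11 had no such step, with Sco1 ranging from 6.48 to 13.8 CPM (widest gap 0.09), Adprm from 4.75 to 8.05 CPM (0.09) and the long noncoding RNA 2310065F04Rik from 152 to 306 CPM (0.11). The 4 diet and AQ groups mix high and low libraries, so their means of Myh3 lie between the sets, and its ratios had wide intervals, such as 0.211 to 5.43 for HFD against chow and 0.362 to 9.35 for AQ on HFD.

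Of 13 listed genes that accompany embryonic myosin in regenerating or denervated muscle 10 had a row, with none for Chrng, Mymk and Mymx. The widest gap of Ncam1, Myod1, Myl4, Gadd45a, Chrna1 and Chrnb1 was between 0.07 and 0.31, far under that of Myh3. Myog, a factor of muscle differentiation, ranged from 2.54 to 7.22 CPM, and in the 5 libraries with Myh3 above 70 CPM it was at 2.78, 3.59, 2.54, 2.93 and 3.43 CPM. Myl4, the embryonic light chain, was at 11.4, 10.6, 10.3, 6.18 and 10.0 CPM in them, within its overall range of 4.36 to 15.1. Actc1, the actin of developing muscle, had a wide gap of its own (1.13), between 135 and 296 CPM, with 8 libraries above. Of the 5 libraries high in Myh3, WT-NC replicate 2 lay above that gap (299 CPM), and the others were at 121, 90.0, 96.5 and 93.1 CPM. Its highest libraries were those of HFD-Nurr1-mTg (1651 to 4985 CPM), where Myh3 was at 5.32 to 13.9 CPM. Those of HFD-WT also lay above the gap (296 to 396 CPM). The 5 libraries held 13699265 to 14887994 reads, within the range of the others, and their Myh4 level ran from 37884 to 53084 CPM.

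Myh8, the perinatal chain, stood at 4.62 to 14.0 CPM, that is 62 to 201 reads, with no gap of this kind (widest 0.22). Its group means ran from 7.49 ± 3.0 CPM in WT-NC to 9.66 ± 1.1 in HFD-Nurr1-mTg, with overlap at each step. For Myh3 and Myh8 a few reads that fit another chain equally well could matter, if such reads were counted. Myh4 held 472911 to 919536 reads, and 0.922% and 9.52% of its 50-base windows also occur in Myh3 and Myh8. Of the windows of Myh8, 11.8% occur in Myh2, 9.56% in Myh1 and 9.31% in Myh4. Of those of Myh7, 22.2% occur in Myh6, which reached 2.70 CPM at most. On log2(CPM + 1), Myh8 had Pearson correlations of 0.63 with Myh1, 0.37 with Myh2 and -0.27 with Myh4. With group means subtracted these were 0.71, 0.50 and -0.24. The part of shared reads was not tested.

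**Figure D4:**
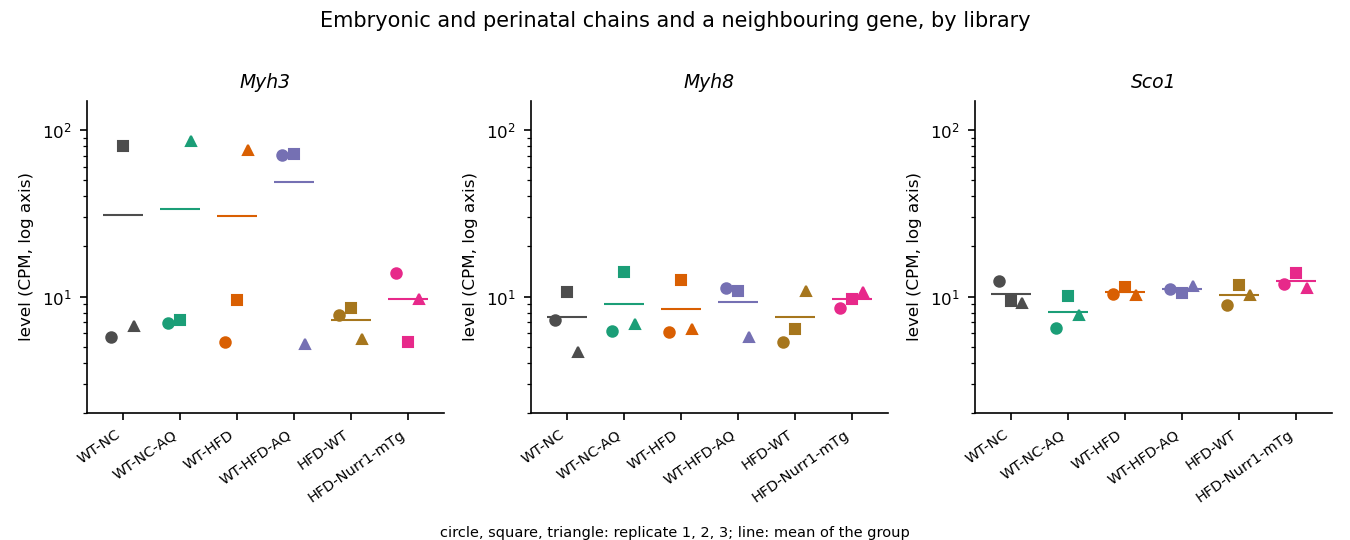
Level in CPM on log axes of the embryonic chain Myh3, the perinatal chain Myh8 and the neighbouring gene Sco1 in each library, with circle, square and triangle for replicates 1, 2 and 3 and a line for the group mean. Myh3 splits into 5 libraries at 70.5 to 86.3 CPM and 13 at 5.18 to 13.9, while Myh8 stays between 4.62 and 14.0 and Sco1 between 6.48 and 13.8.

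Across the 18 libraries Myh4 ran against the other adult chains. On log2(CPM + 1), Myh4 had Pearson correlations of -0.58 with Myh1 (Spearman -0.57), -0.58 with Myh2 (-0.59) and -0.52 with Myh7 (-0.47), and with group means subtracted these were -0.43, -0.70 and -0.67. Myh1 and Myh2 correlated at 0.59 (Spearman 0.53, 0.71 with group means subtracted). Without the 2 libraries farthest from the median, the Pearson values were -0.46, -0.41, -0.67 and 0.44. Myh7 had 0.09 with Myh1 and 0.02 with Myh2, and 0.05 and 0.37 with group means subtracted. These are descriptions of 15 pairs over libraries that share the scaling to a common depth, and similar genes may also share reads.

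The slow troponin genes followed Myh7. Of 9248 named genes with a mean of at least 5 CPM, the 3 with the highest correlation with Myh7 were Tnnc1 (0.958), Tnnt1 (0.918) and Tnni1 (0.904), the slow troponin C, T and I genes. With group means subtracted the values were 0.971, 0.967 and 0.978. Tnnc1 ranged from 32.5 CPM in HFD-Nurr1-mTg replicate 3, also the lowest library for Myh7, to 112 CPM in WT-HFD-AQ replicate 1. In the list of 14 slow fibre genes correlations with Myh7 ran from -0.07 to 0.96 (median 0.60), and 9 were above 0.5. Among the others, Mb, the oxygen carrier myoglobin, had 0.24 and Mybpc1, slow myosin binding protein C, 0.12.

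Fast genes followed Myh4. Its 3 closest were Mybpc2 (0.928), the fast myosin binding protein C, BC023829 (0.888) and Actn3 (0.878), the alpha-actinin of fast fibres. Of 14 fast fibre genes 12 had a correlation above 0.5 with Myh4, and all 14 had one below 0 with Myh1. The closest to Myh1 were Atp5g3 (0.899), a subunit of ATP synthase, Slc25a3 (0.895), the mitochondrial phosphate carrier, and Mb (0.892). For Myh2 they were Adamtsl5 (0.866), Mgrn1 (0.844) and Prdx6 (0.831). With the 14 slow fibre genes Myh2 had correlations from -0.16 to 0.81 (median 0.20), with 3 of 14 above 0.5 and 3 below 0.

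For Myh8 the closest were Ndufs7 (0.821), Cby1 (0.814) and Ndufa11 (0.80), at read numbers that limit precision. The libraries of Myh3 fell into 2 sets, so no correlation is given for it. By the same rule the highest-ranked genes were Angel1, Zfyve19 and Arid3b, and they ran only from 8.78 to 13.6 CPM, from 8.66 to 13.2 CPM and from 3.88 to 5.78 CPM.

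**Figure D5:**
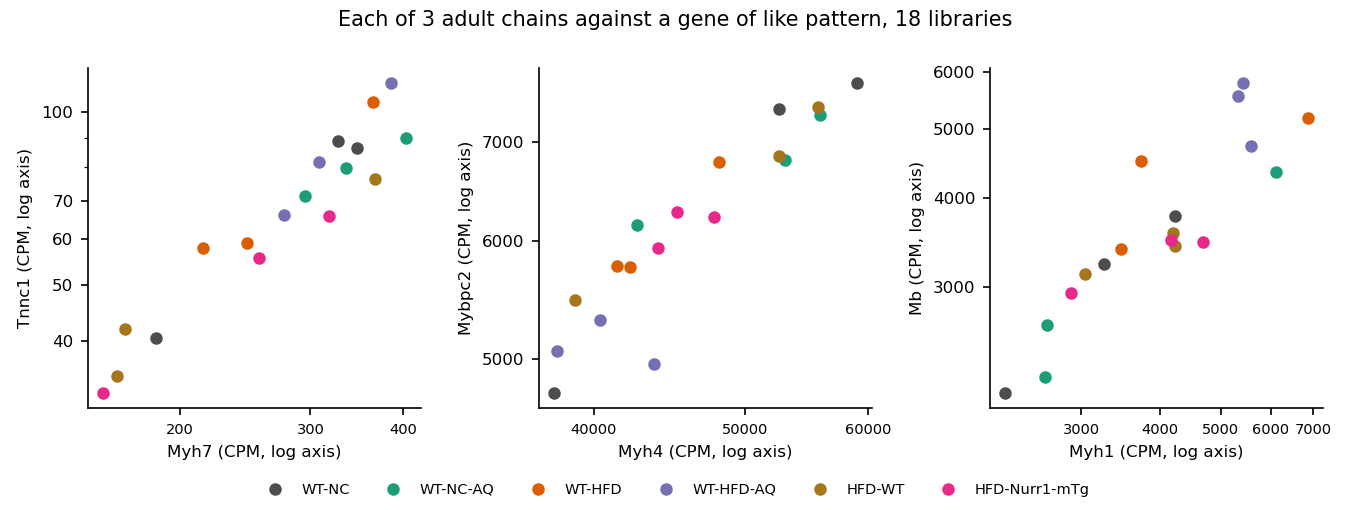
Levels in CPM on log axes of Myh7 against Tnnc1, Myh4 against Mybpc2 and Myh1 against Mb, a point per library coloured by group. The points rise together in each panel (Pearson 0.958, 0.928 and 0.892 over 18 libraries).

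The other genes of the fibre programmes were counted from lists chosen with earlier results of these data known. Of 14 slow fibre genes and 14 fast fibre genes, all tested, none of either list was called in HFD against chow, in AQ against control on either diet, in the interaction, for the transgene or between the wild-type HFD groups. In AQ on HFD, 0 of 14 fast genes had a log2 difference above 0 and their median was -0.10, with a median of 0.00 over all genes. Lists leaned to 1 side elsewhere too. Of 14 slow genes, 2 were above 0 between the wild-type HFD groups (median -0.33) and 12 in HFD against chow under AQ (median 0.21). These directions were not tested. Myom2, a protein of the M band, came closest for the transgene, at 2290 ± 34.5 CPM against 1749 ± 124 in controls (limma adjusted p = 0.102). Mylk2, the kinase of skeletal myosin light chains, was at 863 ± 205 against 1390 ± 175 CPM there (limma adjusted p = 0.261).

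In HFD against chow under AQ, 1 of 14 slow fibre genes rose, Mb, and 0 of 14 fast ones were called, where 10.6% of all genes were. Mb was at 5563, 5797 and 4740 CPM in WT-HFD-AQ and 2659, 4356 and 2245 in WT-NC-AQ. These groups did not overlap, as was so for 33.2% of all genes. The log2 difference was 0.85 ± 0.23 (SE, limma adjusted p = 0.0224). The call was lost without WT-HFD-AQ replicate 1 or 2 or WT-NC-AQ replicate 1 or 3, with adjusted p between 0.00306 and 0.127 over the 6 libraries left out in turn. The same library, WT-NC-AQ replicate 2, was the highest of its group for Mb and for Myh1.

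Of 22 regulators of fibre type, 2 rose with AQ on chow (1.11% of all genes were called) and 4 fell in HFD against chow under AQ (10.6%), 2 comparisons that share the WT-NC-AQ libraries. Nfatc1, a calcineurin-responsive factor tied to slow fibres, stood at 72.2 ± 4.8 CPM in WT-NC-AQ against 54.5 ± 2.7 in WT-NC (limma adjusted p = 0.0430) and 54.4 ± 6.0 in WT-HFD-AQ (adjusted p = 0.00882). Its call for AQ on chow was lost with any 1 of the 6 libraries left out (adjusted p 0.0713 to 0.148). Nfix, a factor of the switch from fetal to adult fibre genes, fell by 0.42 on the log2 scale in HFD against chow under AQ (limma adjusted p = 0.00216) and Ppard, a receptor that raises oxidative genes, by 0.33 (adjusted p = 0.0208). Ppard was lost without WT-HFD-AQ replicate 1 or 3 or WT-NC-AQ replicate 2 or 3 (adjusted p up to 0.0975), and Nfatc1 without WT-HFD-AQ replicate 3 (0.0568).

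The largest number of these regulators, 5 of 22, differed between the 2 untreated wild-type HFD groups, all higher in HFD-WT, where 4.46% of all genes were called. Nfatc1 was at 87.2 ± 9.45 against 58.4 ± 4.8 CPM (limma adjusted p = 0.00251) and Nfix at 448 ± 18.1 against 334 ± 23.5. Nfatc2 was at 36.7 ± 0.63 against 19.5 ± 7.6 CPM (limma adjusted p = 0.0176, up to 0.111 without WT-HFD replicate 1 or 2 or HFD-WT replicate 1 or 2). Nfatc3, a related factor, had a log2 difference of 0.30 (limma adjusted p = 0.0347) and lost the call without any of the 6 libraries but WT-HFD replicate 3 (up to 0.130). What else differed between these groups is not given in the labels, and with only the groups compared in the fit Nfix, Nfatc2 and Nfatc3 missed the threshold.

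Among 12 genes of myosin folding and the thick filament, 3 fell in HFD against chow under AQ, where 10.6% of all genes were called, and 0 passed elsewhere. They were Unc45b, the chaperone of myosin, by 0.30 on the log2 scale (limma adjusted p = 0.0123), Hsp90ab1, a cytosolic HSP90 gene, by 0.34 (adjusted p = 0.0181), and Trim63, the ubiquitin ligase MuRF1 that targets myosin heavy chains, by 0.51 (adjusted p = 0.0405). Each call was lost when some libraries were left out. For Unc45b these were WT-HFD-AQ replicate 3 and WT-NC-AQ replicate 1 (adjusted p up to 0.0610), for Hsp90ab1 those and WT-HFD-AQ replicate 1 (up to 0.0649), and for Trim63 all but WT-NC-AQ replicate 2 (up to 0.165).

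Of the 10 genes of denervation and regeneration in the table, Myod1, a myogenic factor of satellite cells and fibres, rose with AQ on chow, at 31.7 ± 3.55 CPM against 15.1 ± 1.6 (log2 difference 1.02, limma adjusted p = 0.0165). It fell in HFD against chow under AQ, at 19.7 ± 2.4 CPM (log2 difference -0.66, limma adjusted p = 0.0215). The first call was lost without WT-NC-AQ replicate 1 or 3 (adjusted p up to 0.0710) and the second without those or WT-HFD-AQ replicate 1 or 3 (up to 0.102). Actc1 rose in the transgenic muscle, at 2444, 4985 and 1651 CPM against 296, 396 and 351 in controls (log2 difference 2.97 ± 0.64, SE, limma adjusted p = 0.0394), a call that held, with 1 library left out, only where that was HFD-Nurr1-mTg replicate 3 (adjusted p up to 0.219). Of the 8 further myosin heavy chain genes listed 7 had a row, with none for Myh15, and none of the 7 was called in any comparison.

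Some markers of other cells moved with the calls that involve WT-NC-AQ. The summed level of the 6 leukocyte markers in the table, of 8 listed, was 99.8 to 139 CPM in WT-NC-AQ, against 66.8 to 72.9 in WT-NC and 72.4 to 78.2 in WT-HFD-AQ; Adgre1 and Cd3e had no row. The 6 satellite cell markers, of 6 listed, summed to 47.45 to 48.3 CPM in WT-NC-AQ, against 36.3 to 45.3 and 38.1 to 40.6 CPM. Among them Cdh15, a cadherin of satellite cells, rose with AQ on chow (log2 difference 0.53) and fell in HFD against chow under AQ (-0.64). The list did not move as a whole. With AQ on chow 3 of 6 had a log2 difference above 0 (median -0.03), and in HFD against chow under AQ 2 of 6 (median -0.04). In HFD against chow under AQ the 6 smooth muscle markers summed to 198 to 217 CPM on HFD and 234 to 255 on chow, and the 8 skeletal muscle fibre markers to 88758 to 95173 and 107579 to 116215 CPM. In that comparison 10.6% of all genes were called. Among the markers these were Fbn1 (log2 difference -1.52), Col3a1 (-0.98) and Lum (0.47) of 6 fibroblast markers. Of 6 markers each, Acta2 (-0.74) of smooth muscle, Csf1r (-0.54) of leukocytes, Scx (-0.69) of tendon and Erg (0.50) of endothelium were called. So were Cidea (1.29) of the brown adipocyte list and, besides Mb, Des (-0.43) of the 8 muscle fibre markers. Cidea was the only 1 of 4 listed brown adipocyte markers with a row, with none for Ucp1, Elovl3 and Cpn2. Its level was low, 2.68 ± 1.23 CPM in WT-HFD-AQ and 0.451 ± 0.0863 in WT-NC-AQ. Erg was also called for AQ on HFD (0.56, 0.0479% of all genes called), and Vwf of endothelium for AQ on chow (0.45, 1.11%). In the interaction (0.711%) Fbn1 (-1.68) and Cdh15 (-0.68) were called. Between the wild-type HFD groups (4.46%) Smtn of smooth muscle (0.36) and Fbn1 (0.74) were called. The 6 tendon markers summed to 637 to 1031 CPM in HFD-WT and 439 to 681 in WT-HFD, ranges that overlap, and 0 of 6 were called. The part of other cells in these calls was not tested.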

How the data were processed

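The members and gene lists were chosen with earlier results of these data known. The table holds signal values that the authors deposited as CPM: per the submitters' processing notes, reads were aligned with TopHat2 2.0.12 (GRCm38/mm10) and edgeR was used. The columns sum to 929993 to 1071538, and dividing by the value of 1 read gave whole reads for 100% of values (tolerance 1e-06 reads), 10404895 to 16082994 per library, so the unit is CPM on a normalized library scale rather than plain CPM. The counting tool, its annotation, its use of strand and its treatment of reads with several matches are not recorded there. A count of 3 reads corresponds to 0.191 to 0.277 CPM, and this limit covers counting error only.

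Genes that reached 1 CPM in 3 or more libraries were tested on log2(CPM + 1) with limma 3.58.1 (R 4.3.3, trend), with all 6 groups in 1 fit and 12 residual degrees of freedom, and p-values were adjusted by Benjamini-Hochberg over all genes. The method was also run on simulated data, and the outcome is not given here. Alternatives were pseudocounts of 0.25 and 4, other filters and scalings, fits of only the groups compared, a replicate block, no trend, edgeR 4.0.16 and DESeq2 1.42.0 on recovered reads, each library left out, and other lengths for the shares. Named besides the 6 genes were, from each list, up to 4 genes past the threshold per comparison, or up to 2 with the smallest p where none passed, and the 3 genes most correlated with each member, leaving out unnamed gene models. Some genes that the counts include are not reported here. Named outside this rule, after their values were seen, were Nfatc3, the neighbours of Myh3, the gene with the next widest gap, Myog, Myl4, Mybpc1 and the called markers of other cells. Annotation was GENCODE (GRCm38), promoter sequences RefSeq (GRCm38.p6).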

Additional observations from a re-analysis of the deposited data

How the results depend on the processing

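Over 462 alternative fits of the 6 genes that left no library out, 0 gave a call in any comparison, and the smallest adjusted p was 0.130. With 1 library left out, the number of heavy chains called ranged from 0 to 1 in HFD against chow under AQ: Myh1 was called without WT-NC-AQ replicate 2. The replicate numbers did not pair the libraries (correlations of deviations from -0.214 to 0.306 over 18 pairs). The replicate block changed 0 calls of the heavy chains, and Actc1 missed the threshold for the transgene (adjusted p = 0.0516 against 0.0394 without the block).

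Some differences changed sign, and the cause was not tested. Not all of these were near 0 in the reported fit. The log2 difference there was 0.728 for Myh3 in the interaction and 0.234 for Myh2 in HFD against chow under AQ. Myh3 in HFD against chow was -0.0195 in edgeR and -0.032 in DESeq2, and the interaction of Myh1 was -0.0105 and -0.0113. Rescaled to a common sum, the interactions of Myh2 and Myh7 were 0.0348 and 0.0242. With 1 library left out, log2 differences that crossed 0 ranged in HFD against chow from -0.981 to 1.26 (Myh3), -0.328 to 0.121 (Myh7) and -0.165 to 0.397 (Myh8), and for AQ on HFD from -0.0105 to 0.454 (Myh8). For AQ on chow they ranged from -0.256 to 0.36 (Myh1), -0.35 to 0.166 (Myh2), -0.99 to 1.32 (Myh3), -0.151 to 0.173 (Myh4) and -0.11 to 0.48 (Myh8). In HFD against chow under AQ they ranged from -0.0264 to 0.475 (Myh2), -0.227 to 0.0275 (Myh7) and -0.131 to 0.399 (Myh8). In the interaction they ranged from -0.0767 to 0.539 (Myh1), -0.315 to 0.201 (Myh2), -0.439 to 1.91 (Myh3), -0.282 to 0.0407 (Myh4), -0.214 to 0.235 (Myh7) and -0.33 to 0.261 (Myh8). For the transgene they ranged from -0.137 to 0.222 (Myh1), -0.246 to 0.0129 (Myh4) and -0.11 to 0.489 (Myh7), and between the wild-type HFD groups from -0.421 to 0.0725 (Myh1), -0.0345 to 0.232 (Myh2) and -0.391 to 0.177 (Myh8).

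Shares moved with the length used. Without division by length Myh1 took 11.09% in WT-HFD-AQ and 6.79% in HFD-WT, Myh2 5.35% in WT-HFD-AQ and 5.40% in HFD-Nurr1-mTg, and Myh4 82.8%, 87.01% and 86.7% in WT-HFD-AQ, HFD-WT and HFD-Nurr1-mTg, with medians of 0.546% for Myh7 and 0.0163% for Myh8. With the longest coding transcript Myh1 took 6.73% in HFD-WT, Myh2 5.30% in WT-HFD-AQ and 5.35% in HFD-Nurr1-mTg, and Myh4 82.9% in WT-HFD-AQ, with medians of 0.528% for Myh7 and 0.01595% for Myh8. Rescaled to a common sum, Myh1 stood at 5661 CPM in WT-HFD-AQ and Myh2 at 3068 CPM in HFD-WT.

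With no library left out, the number of all genes called ranged over the settings from 2 to 47 in HFD against chow (6 in the reported fit), 1 to 143 for AQ on HFD (6), 12 to 280 for AQ on chow (139), 1159 to 1728 in HFD against chow under AQ (1324), 31 to 229 in the interaction (89), 57 to 171 for the transgene (75) and 96 to 756 between the wild-type HFD groups (559). With 1 library left out, these ranges were 0 to 40, 0 to 224, 13 to 113, 573 to 1130, 3 to 103, 43 to 72 and 145 to 748. Among the named list genes, rescaling ended the calls of Nfatc1 for AQ on chow, Ppard and Hsp90ab1 in HFD against chow under AQ, and Nfatc3. A fit without the trend ended those of Nfatc1 for AQ on chow, Trim63, Actc1 and Nfatc3, and a filter on a mean of 5 CPM that of Actc1. With only the groups compared, Nfatc1 for AQ on chow also lost its call.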
